A study of Mus musculus with 4 samples.

Results

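The 10 genes described here encode neurofilament subunits (Nefl, Nefm, Nefh and Ina), a neuronal tubulin and microtubule-associated proteins (Tubb3, Map1b, Map2 and Mapt) and growth cone proteins (Gap43 and Stmn2). They were chosen by name for their known functions, with earlier results of these data known, and all 10 were found among the 55401 genes of the deposited tables and passed the low-count filter, which left 16751 genes. RNA was taken from mouse optic nerves and sequenced in 2 libraries of genotype Dor WT, called controls here, and 2 of the conditional knockout genotype Dor cKO, called mutants. The libraries were made with a stranded mRNA kit. The sources used here do not give age, sex, strain, the promoter that drives the deletion or how many animals went into a library. Both Dor WT tables bear an age-like tag in their names that the Dor cKO tables lack, so the groups may differ in age, and this cannot be told apart from the genotype here. Nothing states that the libraries of a group came from separate animals, so p-values measure the spread between these libraries only.

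Neurofilaments are the intermediate filaments of axons. They are built from a light, a medium and a heavy chain together with alpha-internexin, the product of Ina, which is made early in neuronal development, whereas the heavy chain, the product of Nefh, accumulates late and is tied to growth in axon calibre. Microtubules carry axonal transport and are bundled and stabilised by MAP1B, MAP2 and tau, the last encoded by Mapt. The optic nerve holds the axons of retinal ganglion cells but not their cell bodies, and transcripts of Map1b, Map2 and Mapt are also known from cells of the oligodendrocyte lineage.

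Total expected counts ran from 17263830 to 21595832 per library. The mean fragment length was 260 bases in both control libraries and 245 bases in both mutant libraries. Replicate libraries differed by more than counting noise, with a mean chi-square per gene of 2.63 within the controls and 2.17 within the mutants, where counting noise alone gives about 1. Trp53inp2, known also as Dor and the candidate for the deleted gene, had 138 and 134 CPM (counts scaled to library size with TMM factors) in the controls and 105 and 107 CPM in the mutants. Its log2 fold change was -0.36 (SE 0.04, edgeR adjusted p = 2.73e-08), but a count over all exons and all cells of the nerve is no check of a deletion within some of them. In bulk tissue, fewer cells of a type and less RNA per cell cannot be told apart.

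The genes moved in both directions. Nefh and Nefl were higher in the mutants, by 1.42-fold and 1.18-fold. Map1b, Mapt, Map2, Gap43 and Ina were lower, by 1.66-fold for Map1b and between 1.31-fold and 1.35-fold for the other 4. Nefm, Tubb3 and Stmn2 did not pass the test. Of the 10 genes, 2 rose and 5 fell at an edgeR adjusted p under 0.05, against 14.3% of all tested genes that rose, 13.4% that fell and 27.7% called in either direction. The median log2 fold change of the 10 was -0.23, against -0.0036 over all tested genes. With the DESeq2 test, 1 rose and 5 fell, against 8.99% and 8.24% of all tested genes. With limma, 0 rose (1 at an unadjusted p under 0.05) and 4 fell, against 3.98% and 4.31% on log2(TPM + 1) and 4.01% and 4.38% on log2(TPM + 0.1). At a fixed coefficient of variation of 0.1, 1 rose and 3 fell, against 4.2% and 5.32%. With a replicate block, 2 rose and 5 fell, against 15.3% and 14.4%. In 8 of the 10 genes the CPM values of the groups did not overlap, as in 60.8% of all tested genes.

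**Figure D1:**
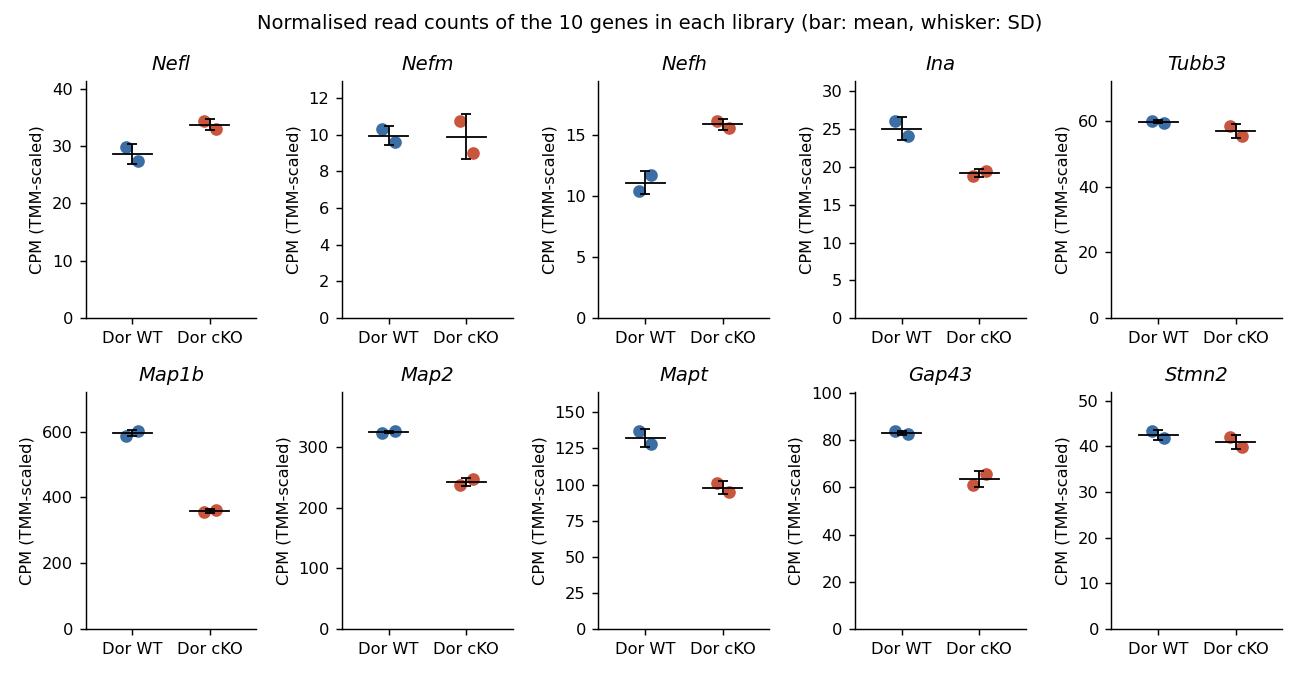
CPM of each of the 10 genes (y axis, from 0) in the 2 Dor WT (blue) and 2 Dor cKO (red) libraries, with the mean as a bar and the SD as a whisker. Nefl and Nefh lie higher in Dor cKO, Ina, Map1b, Map2, Mapt and Gap43 lie lower, and the groups overlap for Nefm and Stmn2.

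The region before the RefSeq transcription start was available for 4 of the 10 genes. RefSeq and GENCODE starts differ for these genes, and the windows of Tubb3 and Map2 end inside the genes as GENCODE M21 annotates them. Of these, Ina, Map1b and Map2 fell, and Tubb3 did not pass the test, so their sequences are shown to set genes that fell together beside one that was not called. Each line gives 250 bases before the RefSeq start on GRCm38.p6, read 5′ to 3′ on the strand of the gene, with matches to the GC box GGGCGG and the TATA box TATAAA, on either strand, in capitals.
Ina (chr19:47014431-47014680, plus strand): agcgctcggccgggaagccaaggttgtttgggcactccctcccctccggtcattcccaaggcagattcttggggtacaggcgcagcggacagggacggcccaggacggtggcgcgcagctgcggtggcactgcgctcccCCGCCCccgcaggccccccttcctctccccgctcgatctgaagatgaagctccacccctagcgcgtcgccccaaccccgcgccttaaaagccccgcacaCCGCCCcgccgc
Map1b (chr13:99516603-99516852, minus strand): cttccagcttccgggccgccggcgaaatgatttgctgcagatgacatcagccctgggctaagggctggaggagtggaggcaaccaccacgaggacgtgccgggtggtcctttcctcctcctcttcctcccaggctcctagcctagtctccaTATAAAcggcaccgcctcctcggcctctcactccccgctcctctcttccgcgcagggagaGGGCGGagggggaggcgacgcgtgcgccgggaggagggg
Map2 (chr1:66175079-66175328, plus strand): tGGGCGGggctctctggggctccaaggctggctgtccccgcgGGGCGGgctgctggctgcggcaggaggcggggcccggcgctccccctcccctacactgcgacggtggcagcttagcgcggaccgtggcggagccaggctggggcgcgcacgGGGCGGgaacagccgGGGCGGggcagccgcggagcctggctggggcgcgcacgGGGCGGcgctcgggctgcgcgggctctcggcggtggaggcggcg
Tubb3 (chr8:123411303-123411552, plus strand): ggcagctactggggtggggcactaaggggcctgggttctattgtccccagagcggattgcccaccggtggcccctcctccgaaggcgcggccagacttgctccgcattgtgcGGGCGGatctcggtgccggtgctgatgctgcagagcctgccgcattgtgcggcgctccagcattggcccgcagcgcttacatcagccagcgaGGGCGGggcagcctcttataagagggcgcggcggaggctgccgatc

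All 4 windows held at least 1 GC box, with 5 matches in Map2, 2 in Ina, 2 in Tubb3 and 1 in Map1b. A GC box was present in 32.7% of 32851 promoter windows of the same length. Only Map1b among the 4 held TATAAA, which 12.4% of all windows held. The CCAAT box, searched as CCAAT, was matched once in Tubb3 and in 33.8% of all windows, and the E-box CACGTG was matched in none of the 4 and in 6.02% of all windows. GC content was 81.2% for Map2, 70.8% for Ina, 68.0% for Tubb3 and 66.4% for Map1b, against a median of 52.4% over all windows. The GC box was present both in the genes that fell and in Tubb3, and these matches are descriptions of letters.

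Among the neurofilament subunits, Nefh had the largest rise (ENSMUSG00000020396.8; chromosome 11, 4938754 to 4948064, GRCm38). It had 10.4 and 11.7 CPM in the controls and 16.2 and 15.5 CPM in the mutants, so that both mutant libraries lay above both control libraries. The log2 fold change was 0.51 (SE 0.12, edgeR adjusted p = 0.00193). The rise did not pass with limma on log2(TPM + 1) or log2(TPM + 0.1) (adjusted p = 0.125 and 0.126), and its adjusted p over the 14 alternatives ran from 4.42e-04 to 0.126.

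Nefl (ENSMUSG00000022055.7; chromosome 14, 68083863 to 68089095), which encodes the light chain on which the other subunits assemble, had 29.9 and 27.4 CPM in the controls and 34.4 and 33.0 CPM in the mutants. The groups did not overlap, and the log2 fold change was 0.24 (SE 0.08, edgeR adjusted p = 0.0223). Of the 7 calls, this one passed in the fewest alternatives, 7 of 14. It was lost with DESeq2 (adjusted p = 0.169), with limma at either pseudocount (0.246 in each) and at a fixed coefficient of variation of 0.1 (0.407), and without Dor WT replicate 2 (0.18), Dor cKO replicate 1 (0.164) or Dor cKO replicate 2 (0.055).

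Nefm (ENSMUSG00000022054.11; chromosome 14, 68082590 to 68124846), which encodes the medium chain, had 10.3 and 9.58 CPM in the controls and 10.8 and 9.01 CPM in the mutants. Its mutant libraries lay on either side of the control libraries, and the log2 fold change was -0.0051 (SE 0.14, adjusted p = 0.985). Nefl lies within the Nefm locus on the opposite strand, and RSEM shared reads between the 2 genes, with a posterior SD of at most 3.13 counts in either. The number of shared reads is not given. The expected counts of Nefm were 179 and 208 in the controls and 226 and 187 in the mutants.

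Ina (ENSMUSG00000034336.3; chromosome 19, 47014698 to 47025327) moved opposite to Nefh and Nefl. It had 26.1 and 24.0 CPM in the controls and 18.8 and 19.5 CPM in the mutants. Both mutant libraries lay below both control libraries, and Ina fell by 0.39 on the log2 scale (SE 0.09, adjusted p = 0.00205). The fall did not pass with limma on log2(TPM + 1) or log2(TPM + 0.1) (adjusted p = 0.0938 and 0.0927) or at a fixed coefficient of variation of 0.1 (0.109). Ina overlaps Nt5c2 on the opposite strand, and the posterior SD of its count was at most 4.32.

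Per length, the proportions of the 4 subunits differed between groups, while their sum differed by less than the spread between libraries. TPM, the RSEM abundance, is divided by transcript length, so levels of different genes can be compared. The summed TPM of the 4 subunits was 35.4 and 33.5 in the controls and 36.1 and 34.7 in the mutants, 34.5 ± 1.34 against 35.4 ± 0.955 (SD, n = 2). Ina made up 35.8% and 34.9% of that sum in the controls but 25.0% and 27.0% in the mutants. Nefh made up 11.4% and 13.6% in the controls and 17.2% in both mutant libraries. Nefl went from 39.1% and 38.1% to 43.9% and 43.7%, and Nefm stayed between 12.1% and 13.9% in all 4 libraries. The shares of Ina, Nefh and Nefl did not overlap between groups, but with 2 libraries against 2 the exact two-sided permutation test cannot go below p = 0.333, the value that each of them had.

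Nefh had the largest rise and Ina the only called fall of the subunits, so among the ratios taken that of Nefh to Ina had to move most. In TPM this ratio was 0.318 and 0.39 in the controls and 0.687 and 0.636 in the mutants. Nefl and Ina stood at a ratio of 1.09 in both control libraries and at 1.75 and 1.62 in the mutants. The ratio of Nefh to Nefl moved less, from 0.291 and 0.357 to 0.392 and 0.393, and that of Nefm to Nefl went from 0.35 and 0.353 to 0.317 and 0.277. For each of these ratios the groups did not overlap, with the same smallest possible permutation p of 0.333.

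**Figure D2:**
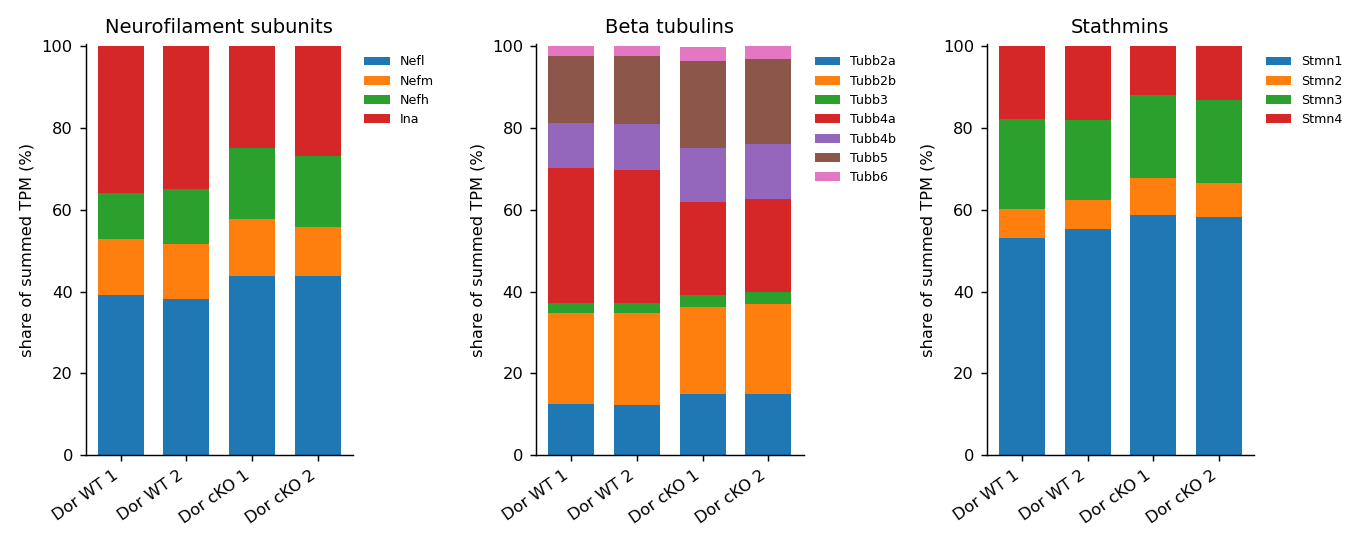
Share of each gene (y axis, percent of the summed TPM of its family) in each of the 4 libraries (x axis), for the neurofilament subunits, the beta tubulins and the stathmins. The Ina share shrinks from about 35.3% to 26.0% on average as Nefl and Nefh grow, and Tubb4a and Stmn4 shrink within their families.

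Among the microtubule genes, Map1b showed the largest change of the 10 (ENSMUSG00000052727.6; chromosome 13, 99421446 to 99516540). MAP1B is an early microtubule-associated protein of growing axons. Map1b had 588 and 601 CPM in the controls and 355 and 363 CPM in the mutants, with a wide gap between groups. It fell by 0.73 (SE 0.02, edgeR adjusted p = 1.41e-20), and the fall passed in all 14 alternatives, from -0.75 to -0.66.

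Map2 (ENSMUSG00000015222.18; chromosome 1, 66175273 to 66442583), whose product binds microtubules mainly in dendrites and cell bodies, had 323 and 326 CPM in the controls and 237.5 and 247 CPM in the mutants. The groups did not overlap. It fell by 0.42 (SE 0.03, adjusted p = 3.02e-13) and passed in all 14 alternatives. Mapt (ENSMUSG00000018411.17; chromosome 11, 104231390 to 104332090), which encodes tau, had 137 and 128 CPM in the controls and 101.0 and 94.9 CPM in the mutants. Its groups did not overlap either, and it fell by 0.43 (SE 0.04, adjusted p = 4.73e-09) with a call in all 14 alternatives.

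Tubb3 (ENSMUSG00000062380.4; chromosome 8, 123411424 to 123422015), the beta tubulin isotype used as a marker of neurons, had 60.0 and 59.4 CPM in the controls and 58.4 and 55.4 CPM in the mutants. Both mutant libraries lay below both control libraries by a small margin, and the log2 fold change of -0.07 (SE 0.06, adjusted p = 0.419) did not pass. Within the beta tubulins, Tubb3 made up 2.43% and 2.41% of the summed TPM in the controls and 2.97% and 2.84% in the mutants. That sum was 2223 and 2226 TPM in the controls and 1743 and 1740 TPM in the mutants. Tubb4a, a beta tubulin abundant in oligodendrocytes, went from 33.0% and 32.7% of it to 22.5% and 22.7%. Tubulin genes are close copies, so their split of reads is uncertain, although RSEM gave Tubb3 itself a posterior SD of 0 counts in each library. Gm20388 overlaps Tubb3 on the same strand.

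Of the growth cone genes, Gap43 (ENSMUSG00000047261.9; chromosome 16, 42248442 to 42340651) encodes a membrane-bound protein of extending axons. It had 83.8 and 82.5 CPM in the controls and 61.1 and 65.8 CPM in the mutants, with no overlap, and fell by 0.39 (SE 0.05, edgeR adjusted p = 1e-06). The fall passed in 13 of 14 alternatives and not at a fixed coefficient of variation of 0.1 (adjusted p = 0.078). Stmn2 (ENSMUSG00000027500.10; chromosome 3, 8509360 to 8561606), which encodes a tubulin-binding protein of growth cones, had 43.3 and 41.8 CPM in the controls and 42.0 and 39.8 CPM in the mutants. Its groups overlapped, and the log2 fold change was -0.05 (SE 0.07, adjusted p = 0.624). Among the 4 stathmins, Stmn2 made up 7.27% and 7.05% of the summed TPM in the controls and 8.92% and 8.43% in the mutants, whereas the mean share of Stmn4 went from 17.8% ± 0.231 to 12.5% ± 0.724 (SD, n = 2).

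**Figure D3:**
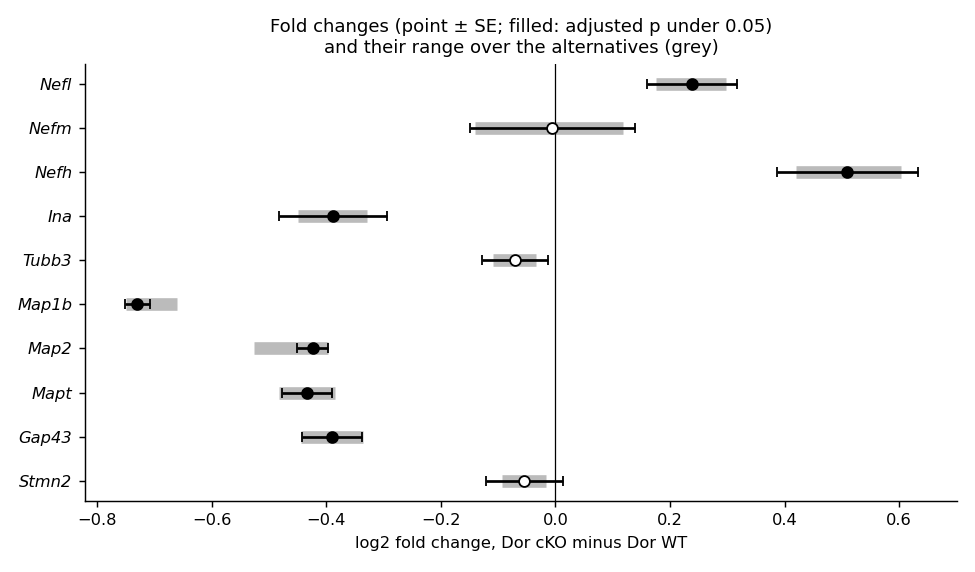
Log2 fold change (x axis, Dor cKO minus Dor WT) of each of the 10 genes with its SE, filled where the edgeR adjusted p was under 0.05, over a grey band that spans the 14 alternatives. The bands of 9 genes stay on one side of 0, and that of Nefm runs from -0.14 to 0.12.

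In order of level, Map2 led in the controls at 144 TPM, followed by Gap43 (104 TPM), Map1b (75.0 TPM), Tubb3 (53.9 TPM), Mapt (44.6 TPM), Stmn2 (34.0 TPM), Nefl (13.3 TPM), Ina (12.2 TPM), Nefm (4.68 TPM) and Nefh (4.30 TPM). In the controls the values of Nefm and Nefh overlapped, and all other neighbours in this order were separated in both libraries. In the mutants, Map2 at 99.8 TPM and Gap43 at 78.0 TPM still led, but Tubb3 (50.6 TPM) now lay above Map1b (45.0 TPM), and Nefh (6.08 TPM) above Nefm (4.61 TPM). The values of Stmn2 (32.9 TPM) and Mapt (32.5 TPM) overlapped in the mutants. The neurofilament transcripts were the least abundant of the 10 in both groups.

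The deposited tables also give, for each gene, the mean length of its transcripts weighted by their estimated abundance, so a change in this value marks a change in the isoforms that RSEM assigned reads to. Map2 has 25 listed transcripts, among which are short forms and forms of up to 6258 bases in the GENCODE M21 annotation. Its mean length was 3536 and 3530 bases in the controls and 3672 and 3803 bases in the mutants, a rise of 5.79% with no overlap. Because TPM divides by length, the log2 ratio of mean TPM for Map2 was -0.53 where the fitted log2 fold change of its counts was -0.42. Map1b was the other of the 7 genes with variable length whose groups did not overlap, at 11778 and 11750 bases against 11737 and 11741 bases, a change of -24.9 bases or -0.211%. That change was -10.9 bases without Dor WT replicate 1 and -38.8 bases without Dor WT replicate 2. The lengths of Mapt ranged from 4453 to 4674 bases within the controls alone, which was wider than in the mutants (4613 and 4546 bases).

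Lengths that did not overlap between groups were about as frequent as random labels would give. Groups did not overlap in 32.1% of 14127 tested genes with more than 1 transcript, where random labels of 2 against 2 give a share of 0.333. In either direction, 30.7% moved by at least as much as Map2. The exact permutation p for Map2 and Map1b was 0.333, the smallest that the design allows, so these lengths are a description. Nefl, Nefh and Ina have a single transcript in the tables.

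**Figure D4:**
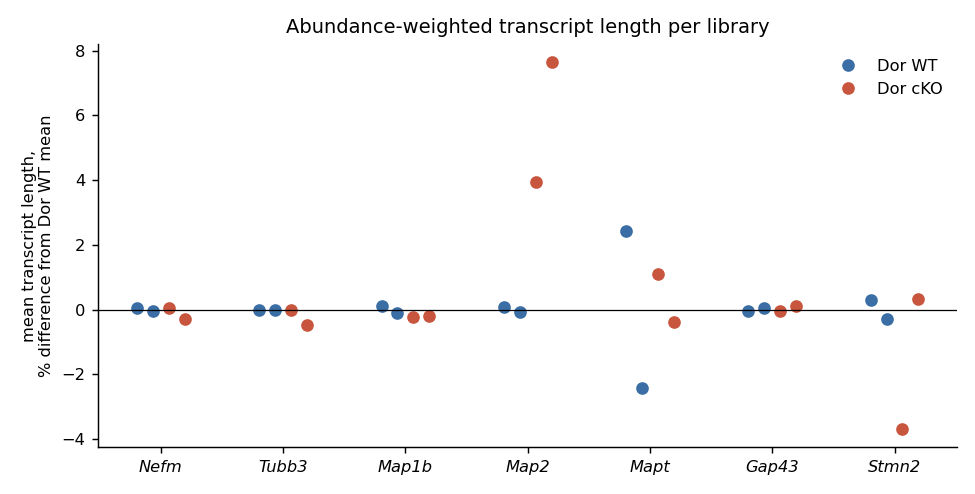
Abundance-weighted transcript length of the 7 genes with a variable value (x axis), as percent difference from the Dor WT mean (y axis), in each Dor WT (blue) and Dor cKO (red) library. Both Dor cKO libraries lie above both Dor WT libraries for Map2, while the Dor WT libraries alone span the values of Mapt.

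Other cytoskeleton genes were read from lists drawn up by function. The counts below stand beside 14.3% of all tested genes that rose and 13.4% that fell with edgeR. Of 23 other microtubule-associated protein genes, 13 fell and 3 rose, with a median log2 fold change of -0.24. Tppp, which encodes a tubulin polymerisation factor of oligodendrocytes, fell 2.00-fold (492 ± 3.73 to 246 ± 0.642 CPM, SD, n = 2). Map4, the widely expressed relative of tau, and Dclk1, a doublecortin-like kinase gene, rose by 0.09 and 0.16 on the log2 scale. Of 8 stathmin and collapsin response mediator genes, 6 fell and 0 rose (median -0.24). Dpysl2, which encodes a tubulin-binding protein of axon outgrowth, fell 1.35-fold, Dpysl4 1.22-fold and Stmn1 1.13-fold. Of 15 other tubulin genes, 3 fell and 2 rose (median -0.06). Tubb4a fell 1.83-fold, Tuba1a, the main alpha tubulin gene of young neurons and glia, 1.46-fold, and Tubb2b 1.29-fold. The 2 that rose, named after their values were seen, were Tuba1c (1.50-fold) and Tubb6 (1.16-fold).

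Of 20 tested genes of growth cones and axon regeneration, 6 fell and 2 rose (median -0.15). Marcksl1, which encodes a substrate of protein kinase C, fell by 0.34, and the actin regulators Cfl1 and Pfn2 fell by 0.32 each on the log2 scale. Jun and Dbn1, named after their values were seen, rose by 0.22 and 0.16. Of 12 spectrin and ankyrin scaffold genes, 4 rose and 3 fell (median -0.13), with Ank2, Sptan1 and Sptbn1 up by 0.20, 0.13 and 0.05. The 3 that fell, named after their values were seen, were Ank3 (by 0.71), Epb41l3 (by 0.32) and Add1 (by 0.20). Of 19 axonal transport motor genes, 9 fell and 2 rose (median -0.11). Kif5a, the neuronal kinesin heavy chain gene whose product moves neurofilaments along axons, rose 1.41-fold, from 1546 ± 22.1 to 2174 ± 3.72 CPM (SE 0.01 on the log2 scale, edgeR adjusted p = 4.2e-21). The vesicle motor genes Kif1a and Kif1b fell 1.22-fold and 1.23-fold. Of 12 intermediate filament and linker genes of glia and other cells, 6 rose and 2 fell (median 0.14), with the glial filament genes Vim and Gfap up 1.11-fold and 1.07-fold and the linker gene Plec up 1.21-fold.

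**Figure D5:**
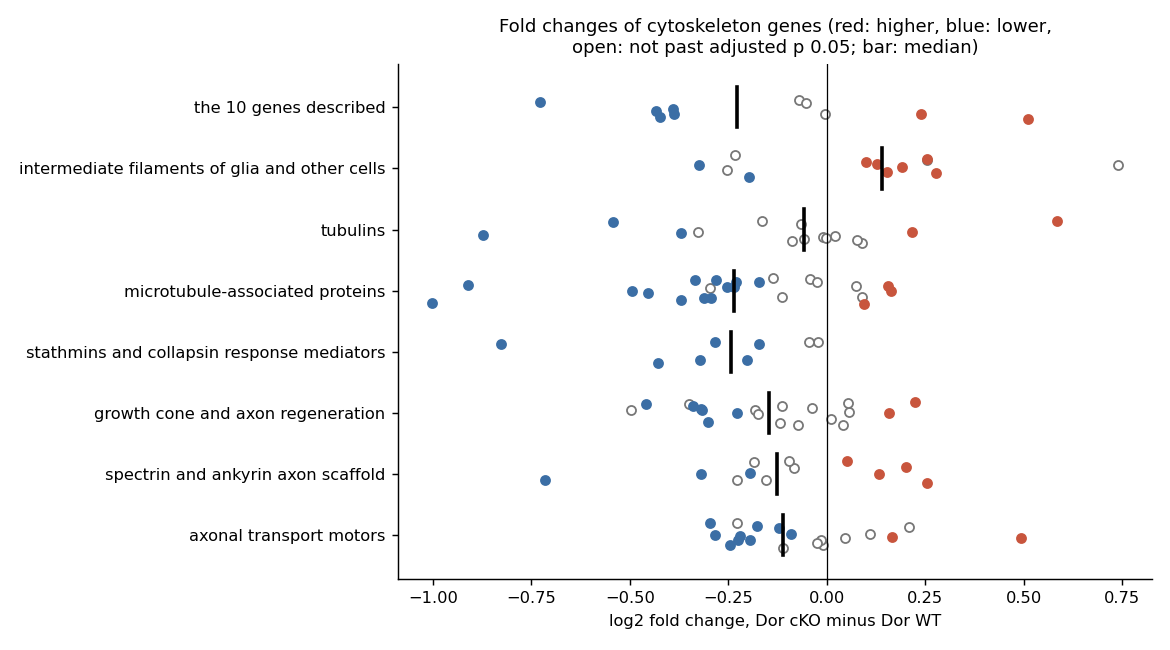
Log2 fold change (x axis, Dor cKO minus Dor WT) of each tested gene of the 10 genes and of 7 cytoskeleton lists (y axis), coloured where the edgeR adjusted p was under 0.05 and with the median as a bar. The medians of the stathmin and microtubule-associated protein lists lie at -0.24, near that of the 10 genes at -0.23. That of the list of intermediate filament and linker genes of glia and other cells lies at 0.14.

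Markers of the cells that could hold these transcripts moved as follows. For all marker lists here and below, the shares of all tested genes were again 14.3% that rose and 13.4% that fell. Of the retinal ganglion cell markers, Pou4f2 had 0 counts in all 4 libraries, where 3 counts correspond to 0.139 to 0.174 CPM. Of 9 tested members of that list 0 rose and 1 fell, Isl1, named after its values were seen. Isl1 fell from 1.15 and 1.84 CPM to 0.476 and 0.53 CPM (adjusted p = 0.018). Thy1 had 25.2 and 25.4 CPM in the controls and 29.5 and 26.4 CPM in the mutants, and the glutamate transporter gene Slc17a6 had 7.77 and 7.09 against 6.76 and 8.04 CPM. Neither Thy1 nor Slc17a6 passed (adjusted p = 0.236 and 0.994), nor did Rbpms (0.0632) or Ebf1 (0.96). Pou4f1, named after its values were seen, had expected counts of 17 and 16 in the controls and 6 and 5 in the mutants. It did not pass (edgeR adjusted p = 0.0538). Rbpms2 and Sncg, also named after their values were seen, lay higher in both mutant libraries and did not pass (0.273 and 0.236). The summed TPM of the list was 65.3 and 67.5 in the controls and 69.8 and 68.3 in the mutants. Its largest part was Thy1, with 26.95 and 27.98 TPM in the controls and 28.95 and 26.35 TPM in the mutants.

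Of 19 genes of neuronal cell bodies and synapses, 8 fell and 0 rose (median -0.17), and the summed TPM was 595 and 531 in the controls and 476 and 486 in the mutants. Much of the spread between the control sums was Uchl1, with 228 and 160 TPM in the controls and 167 and 170 TPM in the mutants. Its CPM values in the controls were close, at 84.8 and 87.9. Elavl3, a neuronal RNA-binding protein gene, fell 1.71-fold, Uchl1 1.18-fold and the synaptic vesicle gene Syp 1.13-fold. Transcripts of neurons outside the retina were present in both groups. Avp, the vasopressin gene of hypothalamic neurons, had 334 and 358 CPM in the controls and 341 and 357 CPM in the mutants, and did not pass (adjusted p = 0.862). Oxt, the oxytocin gene, rose 1.32-fold, and Six3 and Six6 did not pass (adjusted p = 0.148 and 0.227). Of 16 tested hypothalamic genes, 5 fell and 1 rose, with a summed TPM of 1842 and 1963 against 1764 and 1833. Most of that sum was Avp, with 1519 and 1635 TPM in the controls and 1477 and 1545 TPM in the mutants. The 5 that fell, named after their values were seen, were Agrp (22.3-fold), Rax (9.04-fold), Npy (4.92-fold), Nkx2-1 (3.84-fold) and Otp (1.33-fold). The folds of Agrp and Rax are uncertain in size, because their mutant counts were near the floor. Agrp had expected counts of 31 and 59 in the controls and 0 and 4 in the mutants. Rax had 43 and 61 against 5 and 7. Of 10 tested pituitary genes, 9 fell and 0 rose. The summed TPM of the pituitary list was 276 and 277.5 in the controls and 65.3 and 63.6 in the mutants, and 7 of its 17 genes had 0 counts in both mutant libraries. Cga, the hormone subunit gene, had 15.8 and 17.3 CPM in the controls and 0 counts in both mutant libraries. The granin genes Scg2, Chga and Chgb, which neurons share with the pituitary, fell 2.48-fold, 5.12-fold and 1.91-fold. The part of these neuronal and pituitary transcripts in the changes of the 10 genes was not tested.

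Genes of the oligodendrocyte lineage moved in the same direction as Map1b, Map2 and Mapt. All 13 mature oligodendrocyte genes on the list fell, with a summed TPM of 25079 and 24863 in the controls and 14252 and 14195 in the mutants. Mbp, a gene of compact myelin, fell 1.66-fold. Of 10 precursor and new oligodendrocyte genes, 9 fell, with Bcas1 2.16-fold and Tns3 1.44-fold lower. The precursor markers Pdgfra and Cspg4, named after their values were seen, moved least on this list. Their log2 fold changes were -0.07 and -0.11, and Cspg4 did not pass (edgeR adjusted p = 0.171). Vcan, a further precursor gene named after its values were seen, fell by 0.60. The part of this lineage in the falls of Map1b, Map2 and Mapt was not tested, nor was that of the shorter fragments of the mutant libraries. Among the other lists, 7 of 10 astrocyte genes, 6 of 10 microglia and macrophage genes, 4 of 10 vascular genes, 9 of 10 meningeal genes and 8 of 10 handling stress genes rose. In each of the first 4 of these lists 1 gene fell, and in the handling stress list 0 fell. The genes that fell, named after their values were seen, were Aqp4 among the astrocyte genes (by 0.35 on the log2 scale), P2ry12 among the microglia genes (by 0.27), Rgs5 among the vascular genes (by 0.31) and Pdgfra among the meningeal genes (by 0.07), the last also on the precursor list. Gja1, an astrocyte gap junction gene, rose 1.31-fold, and Ptgds, a meningeal gene, 1.44-fold. The summed TPM of the handling stress list was 124 and 127 in the controls and 187 and 188 in the mutants, with Dusp1, an immediate early gene, 1.66-fold higher. The part of these lists in the results for the 10 genes was not tested. Retina markers gave 0 calls in 4 tested genes, and Schwann cell markers gave 1, Scn7a, which fell 7.59-fold.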

How the data were processed

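Trimmomatic 0.36, STAR 2.7.9a and RSEM 1.3.1 are listed, with the build GRCm38, in the submitters' processing notes, which give no roles. Neither the annotation release nor the strand setting is given in the sources used here. The deposited tables are RSEM gene tables, per the file headers, and give expected counts, which share ambiguous reads between genes, TPM and FPKM per gene, with lengths and the posterior SD of each count. Symbols and coordinates came from GENCODE M21 (55141 of 55401 identifiers matched without version), and promoters from RefSeq on GRCm38.p6.

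The deposited expected counts were rounded and filtered with filterByExpr (minimum count 10, minimum total 15). Groups were compared with edgeR 4.0.16 (TMM, robust quasi-likelihood test, group as the only term, Benjamini-Hochberg adjustment over all tested genes, threshold 0.05). The SE is the size of the log2 fold change over the square root of F. The common biological coefficient of variation was 0.0348, and the steps were tested on simulated data. Deposited TPM values served for levels and shares, and deposited FPKM for a check of the shares, with exact two-sided permutation tests.

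Alternatives were DESeq2 1.42.0 without independent filtering, RLE and total count scaling, 2 other count filters, limma 3.58.1 on log2(TPM + 1) and log2(TPM + 0.1), a fixed coefficient of variation of 0.1, removal of a trend on transcript length, a replicate block and leaving out each library. Trp53inp2 was named beside the 10 genes, with up to 3 called members per cytoskeleton list by mean CPM. Of each cell type list the 2 most abundant members were named, or 4 for the ganglion cell, neuron, pituitary and hypothalamus lists. Pou4f2 and the genes said to be named after their values were seen lie outside that rule. Some genes that the rule selects are not reported here. The 10 genes and the lists were chosen when earlier results of these data were known.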

Additional observations from a re-analysis of the deposited data

How the results depend on the processing

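The falls of Map1b, Map2 and Mapt passed in all 14 alternatives, that of Gap43 in 13, that of Ina in 11, the rise of Nefh in 12 and that of Nefl in 7. No called gene among the 10 changed direction in any of them. Of the 10 genes, 1 rose with DESeq2 and 1 at a fixed coefficient of variation of 0.1, where 3 fell, and 0 rose with limma on log2(TPM + 1) or log2(TPM + 0.1), where 1 rose at an unadjusted p under 0.05 in each. Leaving out 1 library gave 1 to 2 rises, with Nefh alone without Dor WT replicate 2, Dor cKO replicate 1 or Dor cKO replicate 2. Over all genes, 1506 rose and 1380 fell with DESeq2, 666 and 722 with limma on log2(TPM + 1), 672 and 734 on log2(TPM + 0.1), and 703 and 891 at a fixed coefficient of variation of 0.1, against 2399 and 2248 with edgeR. The cause was not tested. With the replicate block, 2 of the 10 rose and 5 fell, and 2562 genes rose and 2409 fell. Over 13670 genes with a mean count of at least 50, the deviations of Dor WT 1 and Dor cKO 1 from their group means correlated at -0.0037. With 2 libraries per group, the replicate 2 deviations only mirror these. The numbers were not taken to pair the samples. The rise of the Nefl share was 4.61 percentage points from counts, which are not per length, against 5.21 from TPM. The mean length of Tubb3 changed by -8.93 to 0 bases when 1 library was left out, 0 without Dor cKO replicate 2. With 2 libraries per group, the shares, ratios and lengths cannot pass a permutation test.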

Other observations

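The expected counts of Nefl and Nefm were not whole in replicate 1 of either genotype, but their sums were whole. In Dor WT replicate 1, 518.52 and 179.48 gave 698, and in Dor cKO replicate 1, 722.57 and 226.43 gave 949. Gm20388, which overlaps Tubb3 on the same strand and was chosen after its values were seen, had expected counts of 389.78 and 341.81 in replicate 1 of either genotype and 0 in replicate 2. Map2 has 25 transcripts in the deposited tables and 24 in GENCODE M21.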
